A study of Mus musculus with 6 samples.

Results

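Lysosomes are the acidic compartments in which a cell digests protein, carbohydrate and lipid that it takes up or recycles, and the 36 genes described here encode hydrolases that work inside them and proteins of their membrane. They were chosen by name: 9 cysteine peptidases, 3 aspartic and serine peptidases, 8 glycosidases, 5 hydrolases of glycosaminoglycans, 5 lipid hydrolases or sphingolipid activators, and 6 membrane or cholesterol export proteins. All 36 were among the 34745 genes of the deposited table, and all 36 passed the filter on low counts. The RNA came from the hearts of male mice on Day 7 after a myocardial infarction (MI). The MI was made at an age of 8 to 10 weeks by tying off the left anterior descending artery for good. The 3 libraries labelled KO are from cardiac fibroblasts of KDM5B-knockout mice, in which CRISPR/Cas9 removed the JmjC domain that carries the demethylase activity and shifted the reading frame, and the 3 labelled WT are from cardiac fibroblasts of littermate wild-type mice. Both groups had the same operation, and no group without MI was analysed here. The labels do not say whether a library is 1 mouse or a pool, so p-values measure the spread between these libraries.

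Most soluble lysosomal hydrolases are made as precursors, tagged with mannose 6-phosphate in the Golgi apparatus, carried to the lysosome by receptors and activated at low pH. Cathepsins are also secreted, and cathepsins K, S, L and B can cleave collagen, elastin or other matrix proteins outside the cell. Macrophages are rich in lysosomes, but every nucleated cell has them, so the level of these genes in a bulk library adds up all cells in it. The transcription factors TFEB, TFE3 and MITF bind an E-box, the CLEAR element, in many promoters of this group.

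*Kdm5b* is given first, as a check of the labels. It had 98.1, 107 and 105 CPM (counts scaled to a common library total with edgeR's TMM method) in KO replicates 1 to 3 and 108, 129 and 123 in WT replicates 1 to 3, and its log2 fold change of -0.22 did not pass the threshold (adjusted p = 0.0574, edgeR's quasi-likelihood test). It passed under 3 alternatives, namely upper quartile scaling, a replicate block and the fit without WT replicate 1, and the adjusted p ran from 0.0188 to 0.175 over all of them. Every KO library was below every WT library, by a small margin. Counts are per gene and include reads outside the deleted stretch, so this level checks the labels only weakly, and the groups are called the libraries labelled KO and WT. Library totals ran from 12025403 to 15329427 counts, and the lowest count of a lysosomal gene in any library was 180. The 11 fibroblast marker genes were all counted and all lower in KO, with a summed level of 26885 to 31359.5 CPM in KO and 37628 to 40086 in WT. Of 10 endothelial markers 9 were higher, with a sum of 1456 to 2067 CPM in KO and 242 to 254 in WT. Of 8 neutrophil markers 4 could be tested, 2 were higher and 0 lower, and all 8 summed to only 8.63 to 11.1 CPM in KO and 4.57 to 5.90 in WT. Macrophage markers summed to 1339 to 1369.9 CPM in KO and 1639 to 1759.5 in WT, and cardiomyocyte markers to 1350 to 1419 and 1609 to 1649. Of the macrophage sum, *Lyz2* alone held 813 to 858 CPM in KO and 1073 to 1154 in WT. The part of these shifts in the results on lysosomal genes was not tested, and in bulk libraries fewer cells of a type cannot be told apart from less RNA per cell.

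In the libraries labelled KO, 7 of the 36 lysosomal genes were higher and 9 were lower at an adjusted p under 0.05, and 20 were not called. The 7 higher genes were *Arsa*, *Ctsd*, *Neu1*, *Naglu*, *Lgmn*, *Ctsb* and *Psap*, and the 9 lower genes were *Ctss*, *Ctsk*, *Ctsf*, *Ctsc*, *Gusb*, *Ctsh*, *Gm2a*, *Scarb2* and *Glb1*. The share called was 44.4%, against 30.2% of all 14084 genes tested. By direction, 19.4% were higher, against 17.7% of all genes, and 25.0% were lower, against 12.5%. The lysosomal genes lay at higher levels, with a median FPKM (counts scaled by gene length and library total) of 35.4, against 4.41 over all genes tested. Whether level bears on these shares was not tested. The median log2 fold change was -0.02, equal to the median over all genes tested at this rounding, and its sign changed with the scaling of the libraries. Changes were small outside *Arsa*: the log2 fold changes ran from -0.53 to 0.55 in the other 35 genes. With a fold change above 1.5 required in addition, *Arsa* alone was left of the 36, beside 1364 higher and 194 lower of all 14084 genes tested.

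**Figure D1:**
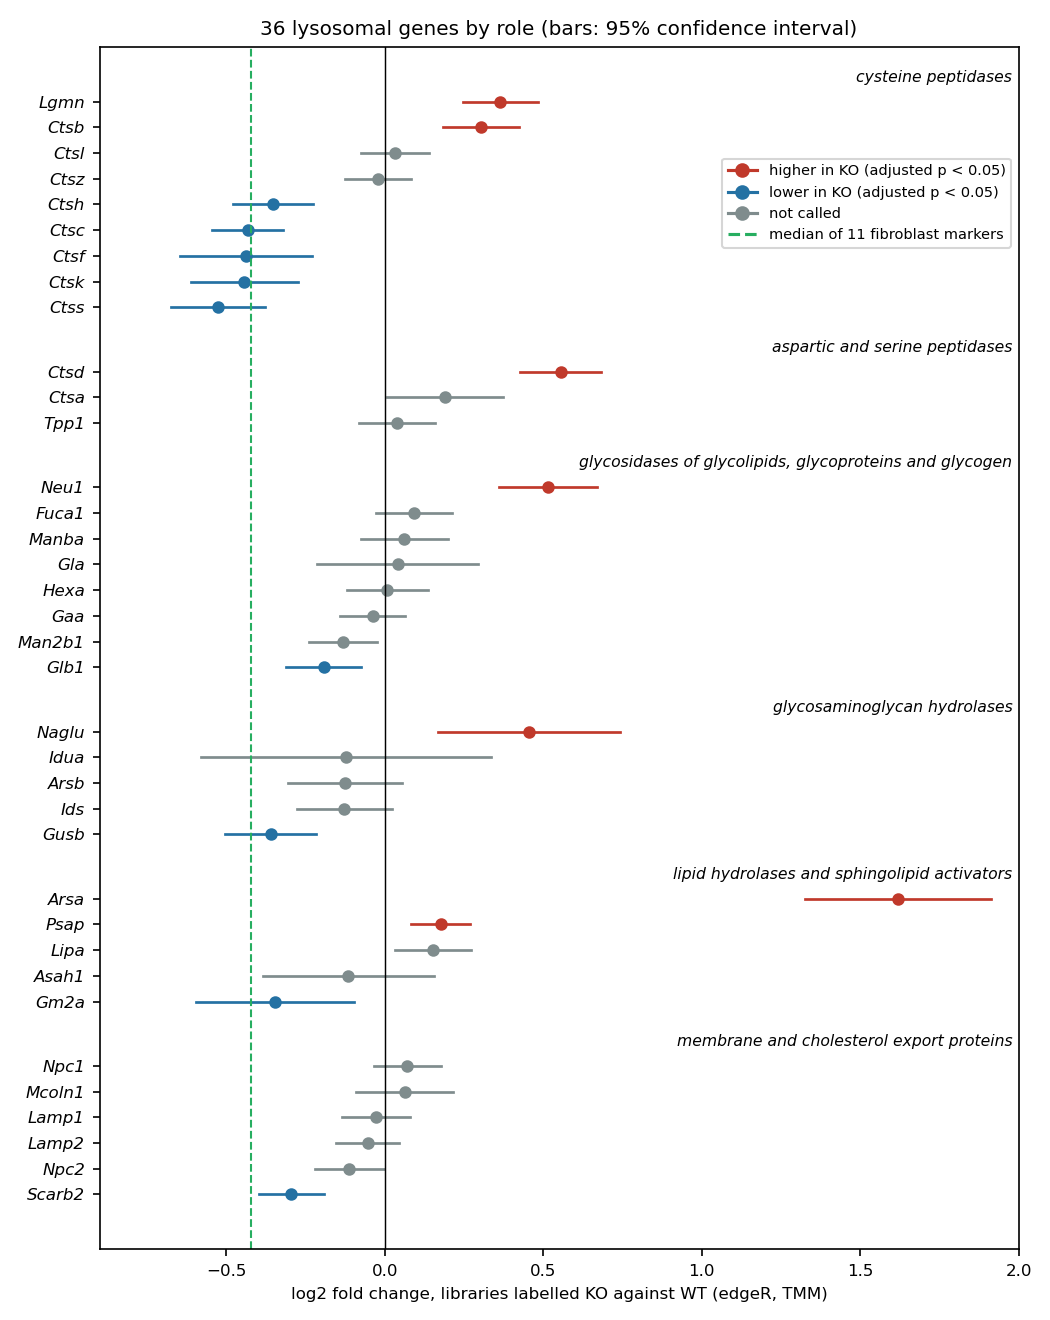
Log2 fold change (x axis) of the 36 lysosomal genes in the 3 libraries labelled KO against the 3 labelled WT, grouped by role, with 95% confidence intervals from edgeR as bars. Red points are the 7 higher genes, blue points the 9 lower genes, grey points the 20 that were not called, and the dashed line is the median of the 11 fibroblast markers at -0.42. *Arsa* at 1.62 stands to the right of all others, and 5 of the 9 cysteine peptidases lie near the dashed line.

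The KO libraries lay wholly above the WT libraries in 10 lysosomal genes and wholly below them in 12, together 61.1% of the list. Over all genes tested these shares were 47.0% in either direction, 24.7% above and 22.4% below. For a single gene of this kind an exact two-sided permutation test over the libraries gives p = 0.1, and a design of 3 against 3 cannot go lower, so the calls rest on the spread that edgeR pools over all genes.

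Levels per gene length differed far more between lysosomal genes than between the labels. Mean deposited FPKM over the 6 libraries ran from 1.84 for *Idua* to 730 for *Ctsl*, with a median of 35.4, against a median of 4.41 over all genes tested. After *Ctsl*, which encodes cathepsin L, the order by FPKM was *Ctsd* (561), *Lamp1* (464), *Psap* (255), *Ctsz* (231) and *Ctsb* (209). *Ctsd* was at 674 ± 53.0 FPKM (SD, n = 3) in KO and 448 ± 3.04 in WT, and in KO it came closer to *Ctsl*, at 746 ± 13.8, than in WT, where *Ctsl* was at 713 ± 36.7. *Lamp1* had 465 ± 9.83 and 464 ± 22.4 FPKM, so *Ctsd* was above *Lamp1* in KO by more than the spread, while in WT the pair did not differ beyond it.

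**Figure D2:**
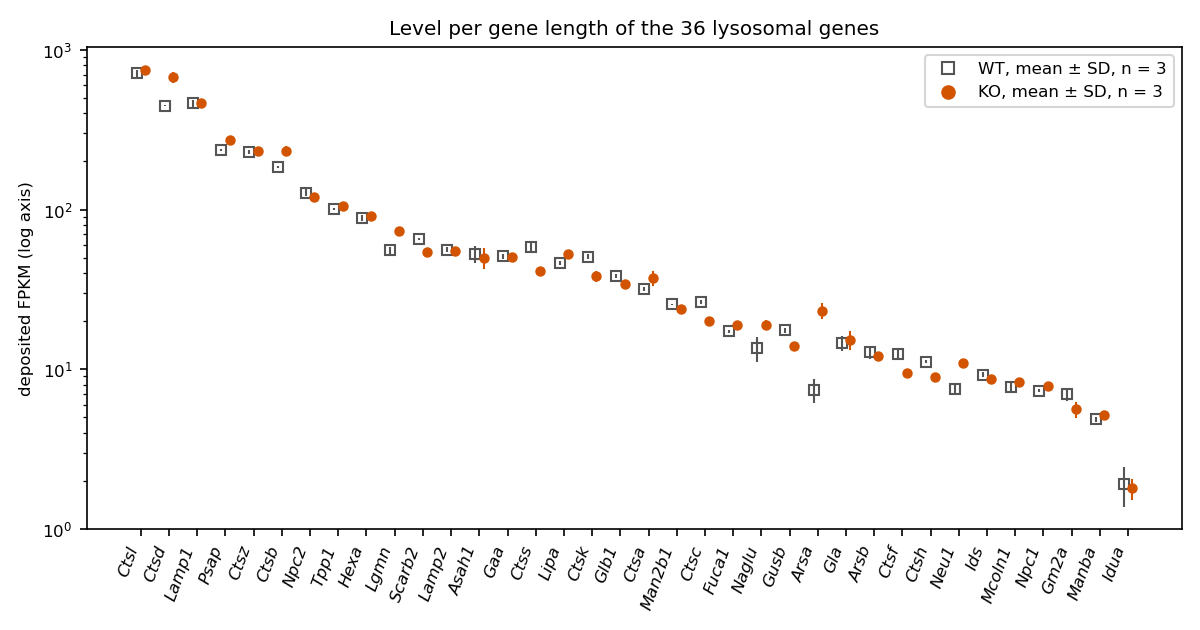
Deposited FPKM (log y axis) of each of the 36 lysosomal genes, as mean and SD of the 3 libraries labelled KO (filled circles) and the 3 labelled WT (open squares), in the order of the mean over all libraries. The levels span from 1.84 for *Idua* to 730 for *Ctsl*, and *Arsa* shows the widest gap between the labels.

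Summed over the 36 genes, the level was 12555.5, 11959 and 11873 CPM in KO and 11159, 10900 and 11067 in WT, so each KO library was above each WT library. The mean sum was 9.85% higher in KO. Most of this came from *Ctsd*, since without it the sums were 9548 ± 179 CPM (SD, n = 3) in KO and 9285 ± 138 in WT, 2.83% higher. Without *Ctsd*, *Ctsb* and *Psap* the KO and WT libraries overlapped, at 7375 ± 90.2 and 7444 ± 149 CPM. The 20 genes that were not called summed to 5931 ± 101 CPM in KO and 5942 ± 123 in WT.

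*Arsa* encodes arylsulfatase A, which removes sulfate from the myelin lipid sulfatide, and lies on chromosome 15 from 89472476 to 89477425 (mm10, minus strand). It had 172, 137 and 157 CPM in KO and 44.5, 46.4 and 60.5 in WT. The lowest KO library was above the highest WT library, and within WT replicate 3 was the highest. On the log2 scale KO was 1.62 above WT (standard error 0.13, adjusted p = 6.87e-05, edgeR). Its exons share 690 bases, 18.8% of their length, with the antisense RNA *C230037L18Rik*, which was also higher in KO (log2 fold change 3.55) but had only 4.13 to 9.66 CPM there and 0.284 to 0.819 CPM in WT, and whether the authors counted by strand is not given in the sources used here. *Shank3*, the next gene on the chromosome and named after its values were seen, was higher as well, at 78.9 to 114 CPM in KO and 11.3 to 13.6 in WT (log2 fold change 2.95). KO replicate 1 had the highest and KO replicate 2 the lowest level of both *Arsa* and the summed endothelial markers, while WT replicate 3 had the highest *Arsa* and the lowest endothelial sum of the WT libraries, and whether those markers bear on *Arsa* was not tested.

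*Ctsd* encodes cathepsin D, the main aspartic peptidase of lysosomes (chromosome 7 from 142371148 to 142388038). It had 2801, 2503 and 2439 CPM in KO and 1760, 1768 and 1743 in WT. The WT libraries lay close together, KO replicate 1 was the highest of the KO libraries, and the groups did not overlap. KO exceeded WT by 0.55 on the log2 scale (standard error 0.06, adjusted p = 0.000251, edgeR). Its annotated exons share 808 bases, 34.4% of their length, with *Gm49369* on the same strand, for which no count was used here.

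Promoter sequences of 4 genes are shown because these genes had the largest rise (*Arsa*), the rise of the most abundant called gene (*Ctsd*), the largest fall (*Ctss*) and the most E-boxes without a call (*Lamp1*). They are the 250 bases before the gene's start, from RefSeq on GRCm38.p6, written 5′ to 3′ on the gene's strand, with each E-box CACGTG in capitals. The windows are chr15:89477425-89477674 (minus strand) for *Arsa*, chr7:142387828-142388077 (minus strand) for *Ctsd*, chr3:95526536-95526785 (plus strand) for *Ctss* and chr8:13158911-13159160 (plus strand) for *Lamp1*. RefSeq starts can differ from the ends of the deposited gene spans. Most of the *Ctsd* window lies inside its deposited span, which ends at 142388038, and the *Lamp1* window runs past the deposited start at 13159135.
Arsa: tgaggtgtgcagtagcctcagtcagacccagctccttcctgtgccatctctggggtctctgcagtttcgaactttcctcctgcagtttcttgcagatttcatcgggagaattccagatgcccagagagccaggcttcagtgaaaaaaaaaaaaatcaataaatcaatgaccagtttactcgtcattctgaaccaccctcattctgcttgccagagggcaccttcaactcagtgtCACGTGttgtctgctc
Ctsd: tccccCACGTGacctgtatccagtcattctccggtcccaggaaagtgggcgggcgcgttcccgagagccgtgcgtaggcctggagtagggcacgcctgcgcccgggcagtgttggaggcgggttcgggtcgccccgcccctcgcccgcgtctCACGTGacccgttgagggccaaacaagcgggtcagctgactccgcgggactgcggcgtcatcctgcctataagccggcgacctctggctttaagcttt
Ctss: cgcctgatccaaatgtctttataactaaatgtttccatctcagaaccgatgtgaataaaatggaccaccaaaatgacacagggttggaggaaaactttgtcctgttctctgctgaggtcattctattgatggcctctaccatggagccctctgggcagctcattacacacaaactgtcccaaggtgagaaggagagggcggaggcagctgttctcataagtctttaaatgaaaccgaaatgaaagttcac
Lamp1: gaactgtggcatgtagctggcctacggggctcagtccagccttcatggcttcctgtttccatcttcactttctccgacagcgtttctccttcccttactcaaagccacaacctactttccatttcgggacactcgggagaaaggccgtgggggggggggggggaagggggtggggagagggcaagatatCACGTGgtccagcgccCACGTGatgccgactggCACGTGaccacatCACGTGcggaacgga
*Arsa* holds 1 E-box, *Ctsd* 2, *Lamp1* 4 and *Ctss* 0. The RefSeq table had 35 promoters, of 250 bases before and 50 after a start, for 32 of the 36 genes, and *Asah1*, *Ctsb*, *Ctsh* and *Npc1* had none in it. CACGTG, which reads the same on both strands, was found in 12 of the 35 (34.3%), each in a different gene, and in 7.15% of all 32851 promoters in the table and 9.78% of the 13211 promoters of genes tested. An exact match to the full CLEAR element, a longer palindrome with CACGTG at its centre, was in 0 of the 35. It was in 0.326% of all promoters and in 0.666% of those of genes tested. Variants of the element other than CACGTG itself were not searched for. By call, the E-box was in a promoter of 4 of the 6 higher genes with an entry (*Arsa*, *Ctsd*, *Lgmn* and *Naglu*), 2 of the 8 lower genes (*Ctsf* and *Glb1*) and 6 of the 18 that were not called. These matches describe letters in a window and do not show binding.

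Of the 9 cysteine peptidases 5 were lower, 2 were higher and 2 were not called, so 55.6% were lower and 22.2% higher, beside 12.5% and 17.7% of all genes tested. *Ctss* encodes cathepsin S, which trims the invariant chain of MHC class II in antigen-presenting cells and degrades elastin. It had 71.2, 76.8 and 71.9 CPM in KO and 112, 107 and 98.1 in WT, the largest fall of the 36 genes (log2 fold change -0.53, standard error 0.06, adjusted p = 0.000694, edgeR). All KO libraries were below the lowest WT library. *Ctsk* encodes cathepsin K, the collagenase of osteoclasts that activated fibroblasts also make, and lies 17423 bases before *Ctss* on chromosome 3. It had 51.4, 59.0 and 60.7 CPM in KO and 78.9, 74.9 and 79.1 in WT, a log2 fold change of -0.44 (adjusted p = 0.00279, edgeR). Both neighbours were thus lower in KO without overlap of the libraries.

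*Ctsc* encodes cathepsin C, the dipeptidyl peptidase that activates serine proteases of leukocyte granules. Its level was 133, 137 and 128 CPM in KO and 180, 175 and 184 in WT (log2 fold change -0.43, adjusted p = 0.00045, edgeR). *Ctsf*, for cathepsin F, had 17.3, 19.7 and 18.2 CPM in KO and 26.7, 23.8 and 24.2 in WT (log2 fold change -0.44, adjusted p = 0.00786, edgeR). For *Ctsh*, the gene of the aminopeptidase cathepsin H, the values were 59.6, 58.7 and 63.2 CPM against 78.4, 75.8 and 77.6 (log2 fold change -0.35, adjusted p = 0.00223, edgeR). In all 5 lower cysteine peptidases the libraries of the labels were separate, and their log2 fold changes, from -0.53 to -0.35, stood beside medians of -0.42 for fibroblast markers, -0.38 for macrophage markers and -0.41 for cardiomyocyte markers. Of 16 macrophage markers tested 9 were lower, 2 were higher and 5 were not called. *Itgam*, which had 2 entries with log2 fold changes of -0.61 and 0.56, neither called, was left out of these counts. Among them *Lyz2* (log2 fold change -0.42), *Csf1r* (-0.40) and *Adgre1* (-0.38) were lower, *Cd68*, which encodes a lysosomal membrane protein, and *Mertk*, for a receptor in the uptake of dead cells, were higher (1.38 and 1.04), and *Ccr2* did not pass the filter. Of the osteoclast markers, *Oscar*, *Dcstamp*, *Ocstamp* and *Calcr* did not pass it either, *Acp5* was lower, at 28.2 to 32.6 CPM in KO and 38.5 to 44.6 in WT, and *Mmp9* was not called, at 15.6 to 17.3 and 13.9 to 15.8 CPM.

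The 2 cysteine peptidases that rose were *Lgmn* and *Ctsb*. *Lgmn* encodes legumain, which cuts after asparagine and processes other cathepsins, and had 234, 226 and 236 CPM in KO and 191, 173 and 177 in WT (log2 fold change 0.36, standard error 0.05, adjusted p = 0.00135, edgeR). *Ctsb* encodes the endo- and carboxypeptidase cathepsin B and had 1176, 1045 and 1059 CPM in KO and 878, 880 and 900 in WT (log2 fold change 0.30, adjusted p = 0.00336, edgeR). As with *Ctsd*, KO replicate 1 was the highest. Its exons overlap *Fdft1* on the other strand over 774 bases, and *Fdft1* had a mean of 46.6 CPM. *Ctsl* had 1474, 1465 and 1426 CPM in KO and 1487, 1440 and 1345 in WT, and its log2 fold change of 0.03 had a 95% interval from -0.08 to 0.14. *Ctsz*, for the carboxypeptidase cathepsin Z, had 317, 339 and 335 CPM in KO and 335, 328 and 343 in WT, a log2 fold change of -0.02 with an interval from -0.12 to 0.08. Both intervals lie above the log2 fold changes of the 5 lower cathepsins and below those of *Lgmn* and *Ctsb*.

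**Figure D3:**
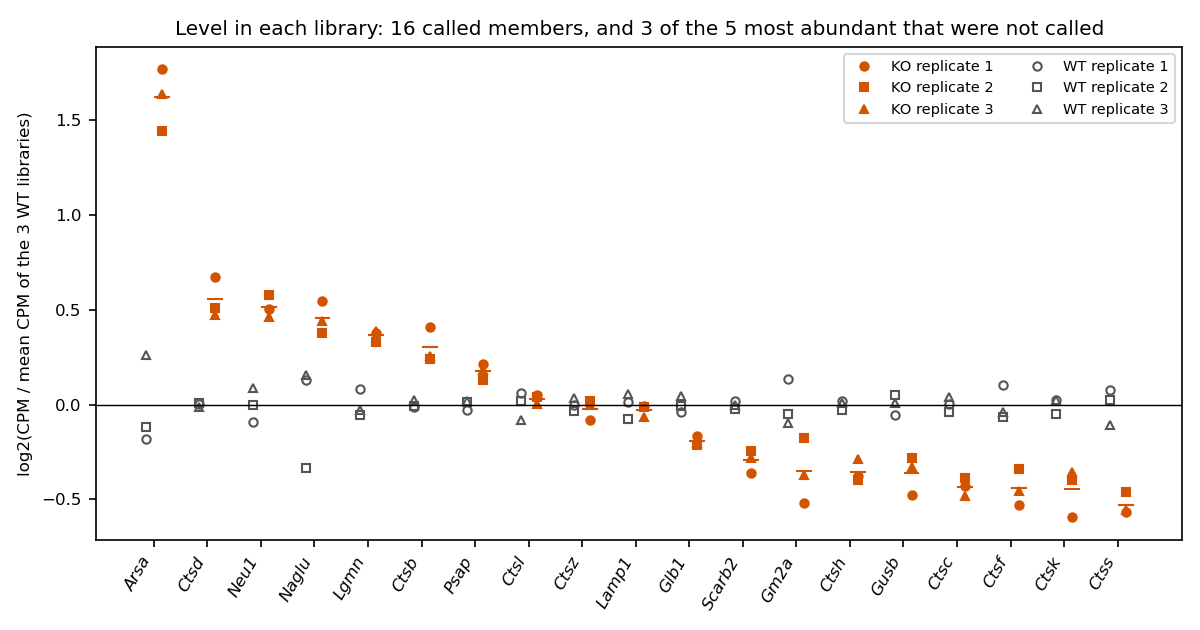
Level of each library as log2 of its CPM over the mean CPM of the 3 WT libraries (y axis), for the 16 called lysosomal genes and for *Ctsl*, *Ctsz* and *Lamp1*, which are among the 5 most abundant and were not called. Filled symbols are KO replicates, open symbols WT replicates, and the short line is the KO mean. In all 16 called genes the filled and open symbols are separate, and WT replicate 2 of *Naglu* and WT replicate 3 of *Arsa* stand apart from the other WT libraries.

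Beside *Ctsd*, the other peptidases of the list are *Ctsa*, for the carboxypeptidase that also protects beta-galactosidase and neuraminidase 1 from degradation, and *Tpp1*, for tripeptidyl peptidase 1. *Ctsa* had 379, 368 and 306 CPM in KO and 303, 320 and 300.0 in WT, so KO replicate 3 lay within the WT range. It was not called (log2 fold change 0.19, adjusted p = 0.107, edgeR), while without KO replicate 3 the value was 0.29 with an adjusted p of 0.00957. *Tpp1* had a log2 fold change of 0.04 with an interval from -0.08 to 0.16.

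Of the 8 glycosidases 1 was higher (12.5%), 1 was lower (12.5%) and 6 were not called, beside 17.7% higher and 12.5% lower of all genes tested. *Neu1* encodes neuraminidase 1, which removes terminal sialic acid. It had 65.7, 69.2 and 64.0 CPM in KO and 43.5, 46.3 and 49.3 in WT (log2 fold change 0.51, standard error 0.07, adjusted p = 0.000974, edgeR), and all KO libraries were above the highest WT library. *Glb1* encodes the acid beta-galactosidase whose activity marks senescent cells. It had 82.7, 80.0 and 80.4 CPM in KO and 90.0, 92.2 and 95.8 in WT (log2 fold change -0.19, adjusted p = 0.0229, edgeR). This call was lost with DESeq2 and in 4 of the 6 fits without a library, with adjusted p up to 0.0769, and *Glb1* shares 165 exon bases with *Tmppe* on the same strand.

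The other 6 glycosidase genes had log2 fold changes from -0.13 to 0.09. *Hexa*, whose enzyme breaks down ganglioside GM2, had 175, 168 and 160 CPM in KO and 174, 165 and 160 in WT, and its interval ran from -0.12 to 0.14. *Gaa*, for the alpha-glucosidase that breaks down glycogen, had an interval from -0.14 to 0.06. *Man2b1*, for lysosomal alpha-mannosidase, was below WT in every KO library, at 99.7 to 104 against 110 to 112 CPM, but did not pass (log2 fold change -0.13, adjusted p = 0.0689, edgeR). *Fuca1*, for alpha-fucosidase, had its KO libraries above WT, at 75.7 to 79.7 against 71.6 to 74.1 CPM, and did not pass either (adjusted p = 0.217, edgeR). *Manba* and *Gla*, for beta-mannosidase and alpha-galactosidase A, had overlapping libraries, and the wide interval of *Gla*, from -0.21 to 0.29, would leave room for a change of the size seen in *Glb1*.

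Glycosaminoglycan hydrolases take apart heparan, dermatan and chondroitin sulfate, the sugar chains of matrix proteoglycans. Here 1 of 5 was higher (20%) and 1 lower (20%), beside 17.7% and 12.5% of all genes tested. *Naglu*, for the alpha-N-acetylglucosaminidase of heparan sulfate breakdown, had 76.2, 67.6 and 70.7 CPM in KO and 57.1, 41.3 and 58.1 in WT (log2 fold change 0.46, standard error 0.12, adjusted p = 0.0262, edgeR). WT replicate 2 was the lowest, and without it the log2 fold change was 0.31 and the adjusted p 0.0268, while the call was lost without KO replicate 1 or KO replicate 3, with adjusted p up to 0.0726. *Gusb*, for beta-glucuronidase, fell from 137, 147 and 143 CPM in WT to 102, 117 and 113 in KO (log2 fold change -0.36, adjusted p = 0.00365, edgeR). *Ids* and *Idua*, for iduronate 2-sulfatase and alpha-iduronidase, and *Arsb*, for arylsulfatase B, had log2 fold changes of -0.13, -0.12 and -0.13 and were not called. *Idua* was the least abundant of the 36 genes, with an interval from -0.58 to 0.33. *Arsb* and *Arsa*, both sulfatases, stood apart in their values, with 46.2 to 49.1 CPM of *Arsb* in KO and 48.8 to 57.2 in WT, and the difference between the genes was not itself tested.

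Among lipid hydrolases and their activators, 2 of 5 were higher (40%) and 1 was lower (20%), beside 17.7% and 12.5% of all genes tested. *Psap* encodes prosaposin, the precursor of the saposins that present sphingolipids to their hydrolases, saposin B among them for arylsulfatase A. It had 1108, 1046 and 1084 CPM in KO and 935, 963 and 967 in WT, which is 0.18 higher on the log2 scale (standard error 0.04, adjusted p = 0.0124, edgeR). *Gm2a* encodes the activator protein that lifts ganglioside GM2 out of the membrane for its breakdown. It had 20.3, 25.7 and 22.4 CPM in KO and 31.9, 28.0 and 27.2 in WT (log2 fold change -0.35, adjusted p = 0.0429, edgeR) and passed under only 4 of 14 alternatives, with adjusted p up to 0.128. *Lipa*, for lysosomal acid lipase, which frees cholesterol from its esters, had 163, 152 and 165 CPM in KO and 146, 139 and 146 in WT and fell just short (log2 fold change 0.15, adjusted p = 0.0585, edgeR), passing under 5 of the alternatives. *Asah1*, for acid ceramidase, had 290, 231 and 305 CPM in KO and 325, 257 and 314 in WT, and replicate 2 was the lowest of each label.

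Of the 6 membrane and cholesterol export proteins 0 were higher, 1 was lower (16.7%) and 5 were not called, beside 17.7% higher and 12.5% lower of all genes tested. Their summed level was 2481 to 2511 CPM in KO and 2551 to 2712 in WT. *Scarb2* encodes LIMP-2, the membrane receptor that carries beta-glucocerebrosidase to the lysosome, and had 346, 375 and 366 CPM in KO and 451, 438 and 444 in WT (log2 fold change -0.29, standard error 0.04, adjusted p = 0.00195, edgeR). *Lamp1*, for the most abundant glycoprotein of the lysosomal membrane, had 1052, 1050 and 1013 CPM in KO and 1070, 1005 and 1101 in WT, with a log2 fold change of -0.03 and an interval from -0.13 to 0.08. *Lamp2*, for its relative with a role in autophagy, had 543, 536 and 553 CPM in KO and 554, 550 and 589 in WT, with an interval from -0.15 to 0.05. *Npc2*, the soluble carrier of cholesterol, was 385 to 395 CPM in KO and 399 to 439 in WT and did not pass (log2 fold change -0.11, adjusted p = 0.110, edgeR). *Npc1*, its membrane partner, had KO libraries from 120 to 124 CPM above WT libraries from 114 to 118 and did not pass (log2 fold change 0.07, adjusted p = 0.284, edgeR). *Mcoln1*, for the calcium channel TRPML1, had a log2 fold change of 0.06 with an interval from -0.09 to 0.22.

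Other genes of the pathway were read from lists drawn up by function, and their counts stand beside the 17.7% of all genes tested that were higher and the 12.5% that were lower. The vacuolar proton pump (V-ATPase), which acidifies the lysosome, had 7 of 18 tested genes higher (38.9%) and 3 lower (16.7%), and the median of its log2 fold changes was 0.18. The largest rises were in *Atp6v1c1*, from 80.8 to 84.3 CPM in WT to 113 to 135 in KO (log2 fold change 0.54, adjusted p = 0.00112, edgeR), and *Atp6v0a2* (0.40), and the largest falls past the threshold in *Atp6ap1* (-0.32) and *Atp6v0c* (-0.25), of which the last 3 missed it under 4, 7 and 7 of 14 alternatives. *Atp6v0d2*, with at most 2.25 CPM in any library, had a log2 fold change of -0.82 and was not called (adjusted p = 0.0774, edgeR). The genes that tag and sort the hydrolases had 0 of 14 higher and 3 lower (21.4%). *Igf2r*, for the cation-independent mannose 6-phosphate receptor, fell from 518 to 542 CPM in WT to 362 to 416 in KO (log2 fold change -0.42, adjusted p = 0.00128, edgeR), and *Sort1*, for the receptor sortilin, fell by 0.43 on the log2 scale.

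For MiT/TFE factors and the kinase complex that controls them, 4 of 18 genes were higher (22.2%) and 1 was lower (5.56%), beside 17.7% and 12.5% of all genes tested. *Tfec* rose from 6.14 to 9.74 CPM in WT to 11.9 to 19.5 in KO (log2 fold change 1.11, adjusted p = 0.00764, edgeR), *Rptor* rose by a log2 fold change of 0.42, and *Tfe3* was lower (-0.20, adjusted p = 0.0140, edgeR), a call lost with limma and without WT replicate 2. *Tfeb* and *Mitf* are given as namesakes of the list, outside the rule for named genes. *Tfeb* was at 7.86 to 9.08 CPM in KO and 7.32 to 7.92 in WT and was not called (adjusted p = 0.272, edgeR). *Mitf* had 16.3, 3.60 and 12.6 CPM in KO and 5.46, 2.32 and 5.83 in WT, with KO replicate 2 inside the WT range, and was not called (adjusted p = 0.104, edgeR). A further list of 31 lysosomal hydrolases and membrane proteins outside the 36 had 30 genes tested, 7 higher (23.3%) and 4 lower (13.3%), with a median of -0.06. In it *Laptm4b*, for a membrane protein of late endosomes, had 133, 96.5 and 106 CPM in KO and 51.9, 47.2 and 48.7 in WT (log2 fold change 1.18, adjusted p = 0.000204, edgeR), and *Hyal1*, for a hyaluronidase, had a log2 fold change of 0.75, while *Acp5*, for an acid phosphatase that is also among the osteoclast markers, had the largest fall (-0.47).

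Cystatins inhibit cysteine cathepsins, and 4 of 8 could be tested. The most abundant of them, *Cst3* (168 to 209 CPM in KO and 199 to 246 in WT) and *Cstb* (159.6 to 176 and 174 to 179 CPM), named after their values were seen, were not called. *Cst6* was higher in KO (log2 fold change 1.06, adjusted p = 0.00642, edgeR), and so was *Stfa3* (2.13), both at low levels of at most 10.1 and 2.29 CPM, and *Stfa3* belongs to a family whose close copies could share reads. Over all 5 pathway lists 20 of 84 genes tested were higher (23.8%) and 11 were lower (13.1%), shares near the 17.7% and 12.5% of all genes tested. The balance turned with the scaling, to 16 higher and 17 lower with upper quartile scaling and 26 and 7 with limma on FPKM, and over all genes to 2210 higher and 2263 lower with upper quartile scaling. The number that passed fell to 9 higher and 6 lower without WT replicate 2, to 12 higher without WT replicate 3 and to 7 lower without KO replicate 3.

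**Figure D4:**
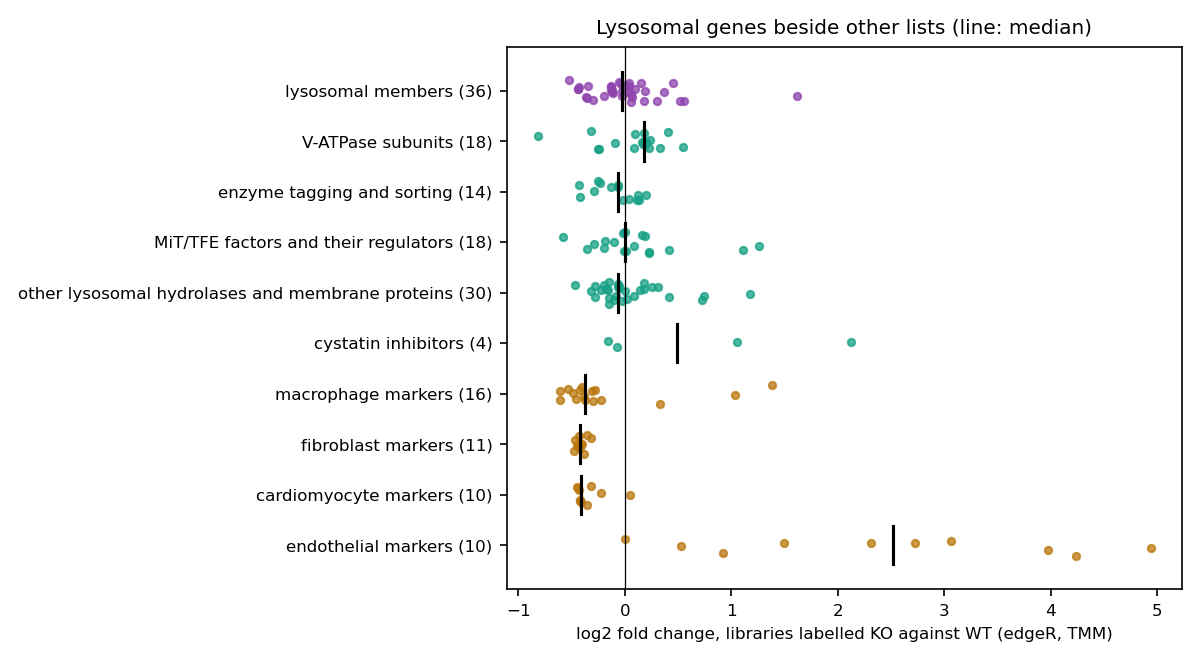
Log2 fold change (x axis) in the libraries labelled KO against WT of each tested gene of the 36 lysosomal genes, of 5 further pathway lists and of 4 lists of cell type markers, with the number of genes in brackets and the median as a line. *Itgam*, which had duplicate entries, is left out. The lysosomal genes centre on -0.02, to the right of the fibroblast (-0.42), macrophage (-0.38) and cardiomyocyte (-0.41) markers and to the left of the endothelial markers (2.52).

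Set beside the marker lists, 32 of the 36 lysosomal genes had a log2 fold change above the median of the fibroblast markers, and the same number above those of macrophage and of cardiomyocyte markers. This share of 88.9% was close to that of all genes tested, of which 90.4%, 87.8% and 89.8% lay above the 3 medians. The 4 at or below these medians were *Ctss*, *Ctsk*, *Ctsf* and *Ctsc*. Against the median over all genes tested, 17 were above and 19 at or below.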

How the data were processed

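The authors mapped paired-end reads from 6 libraries to mm10 with HISAT2 at default parameters. Per the file headers they deposited raw counts per gene, and beside them FPKM values, which the authors scaled by gene length and library total. The submitters' processing notes also name edgeR. The counting tool, annotation release and strand setting are not given in the sources used here. From the deposited counts, all genes were filtered with filterByExpr, scaled with TMM and compared between the 3 KO and 3 WT libraries with edgeR 4.0.16 (glmQLFit and glmQLFTest, two-sided), and p-values were adjusted by Benjamini-Hochberg over all 14084 genes tested, with a threshold of 0.05. The standard errors and intervals come from this fit. FPKM served for levels between genes and for the limma alternatives below. Totals of 12025403 to 15329427 counts put 3 counts at 0.196 to 0.249 CPM, and intervals cover no error beyond these libraries. The fit was tested on simulated data. Exon overlaps are from GENCODE M21 and promoters from RefSeq (GRCm38.p6).

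The members and all gene lists were chosen with earlier results of these data known. Values in every library are given for *Kdm5b*, called members and uncalled members among the 5 highest by FPKM, and of each pathway list the 2 largest rises and falls past the threshold are named, except 1 gene that is not reported here, while the per-library values of other members were added for completeness. The values of the members, *Kdm5b* and, chosen after seeing the data, of other named genes outside the marker lists that passed the threshold, the counts over the members, the pathway lists together and all genes, and the median of the members were recomputed without the filter, with a minimum mean CPM of 1, with DESeq2 1.42.0, with library size or upper quartile scaling, with limma 3.58.1 on log2(FPKM + 1) and log2(FPKM + 0.1), with a replicate block, without each library in turn, and, for the counts, with a fold change above 1.5 in addition.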

Additional observations from a re-analysis of the deposited data

How the results depend on the processing

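Of the 16 called lysosomal genes, 13 passed under all 14 refits, and the exceptions were *Glb1*, *Naglu* and *Gm2a*. Leaving out 1 library gave 6 to 8 higher and 7 to 8 lower lysosomal genes, 9 to 21 higher and 6 to 13 lower genes of the pathway lists, and 2013 to 2508 higher and 1131 to 1614 lower genes in all, the lowest of these last without KO replicate 3. With a fold change above 1.5 in addition, 1 lysosomal gene was higher and 0 lower, against 5 and 0 in the pathway lists and 1364 and 194 over all genes. The pathway lists had 16 higher and 17 lower genes with upper quartile scaling, 26 and 9 with library size and 26 and 7 with limma at either pseudocount, and over all genes upper quartile scaling gave 2210 higher and 2263 lower. Of the other named genes outside the marker lists that had passed, *Atp6ap1* and *Atp6v0c* missed the threshold under 7 alternatives each, with adjusted p up to 0.0992 and 0.115, *Atp6v0a2* under 4, up to 0.0985, and *Tfe3* under 3, up to 0.0822. The median of the lysosomal genes was 0.0096 with library size, -0.066 with upper quartile scaling, 0.0095 with limma at both pseudocounts, and from -0.036 to 0.0096 without 1 library, the highest without WT replicate 1.

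Signs turned only in genes that were not called, and the cause was not tested. Upper quartile scaling gave log2 fold changes of -0.011 for *Ctsl*, -0.0044 for *Tpp1*, -0.034 for *Hexa* and -0.0014 for *Gla*. Library size gave 0.013 for *Ctsz* and 0.0064 for *Lamp1*, limma at a pseudocount of 1 gave 0.012 and 0.0070, and at 0.1 gave 0.012 and 0.0070. Without 1 library the ranges were -0.010 to 0.061 for *Ctsl*, -0.039 to 0.013 for *Ctsz*, -0.023 to 0.046 for *Hexa*, -0.066 to 0.12 for *Gla*, -0.26 to 0.13 for *Idua* and -0.21 to 0.0060 for *Asah1*.

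Same-numbered KO and WT libraries had deviations from the mean of their label correlated at 0.0021, 0.0032 and 0.035, and other pairs ran from -0.028 to 0.021. Whether same-numbered libraries share more than a number was not tested. A replicate block gave 8 higher and 8 lower lysosomal genes, 20 and 13 pathway genes, 2316 and 1591 genes in all, and a median of -0.024.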
